A study of Mus musculus with 4 samples.

Results

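The m6A methylome of normal interscapular brown fat (iBAT) was described from the flox/flox libraries of the deposited m6ARIP-seq table, as reads of the m6A immunoprecipitate (IP) against reads of the RNA before capture (input). The ratio of IP RPM over input RPM, where RPM stands for reads scaled to the total of the library, was recomputed for each region from the read counts with 1 added to each, and regions with at least 20 input reads were kept. This left 4636 of the 9243 regions listed, over 3751 of 6192 gene symbols, and 4607 regions were left out. The mice were Mettl3 flox/flox on the C57BL/6 strain, fed normal chow and 8 weeks old, and they served as controls for BKO mice, in which Ucp1-iCre deletes Mettl3 in brown fat. Both the IP and the input library were made from poly(A)+ RNA of whole iBAT pooled from 5 mice, so there was 1 library of each kind and no replicate, and intervals given here cover counting error only. The BKO columns were not used, except that the table itself lists only regions with a ratio above 1 in both genotypes. The least enriched regions described here are therefore those nearest to 1, not regions depleted in the IP.

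N6-methyladenosine is written onto nascent mRNA by a complex in which METTL3 is the catalytic subunit, METTL14 and WTAP are its partners, and further subunits guide it to RNA. YTH-domain proteins read the mark and alter the splicing, export, translation and decay of the transcript, while FTO and ALKBH5 can remove it. In mammals m6A is known to lie mostly in a GGAC context, around stop codons and in 3'-UTRs. Antibodies against m6A also bind m6Am, the methylated adenosine that can follow the cap when a transcript starts with A, so the starts of transcripts are a separate case. Brown fat burns lipid in mitochondria that are uncoupled by UCP1.

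Transcript starts inside 5' regions were therefore read first. Shown here are 30 bases around the RefSeq start (GRCm38.p6) of genes whose 5' region was among the most or the least enriched, in transcript direction, with the first transcribed base in capitals.
Fcor (ratio 45.8, chr8:3672377-3672406, minus strand): cgctgtgcacgcaccAgaccccgggtttgc
Ndufa1 (ratio 22.4, chrX:37191224-37191253, minus strand): ggaccgcgaacgccaGtcacttttgggccc
Ndufb7 (ratio 20.1, chr8:83566743-83566772, plus strand): agacactgaaggggcAgtgcttccaggtgg
Ndufs6 (ratio 19.4, chr13:73328468-73328497, minus strand): cgcctgcgccggcacTtggtacgacgcgtg
Dbp (ratio 1.01, chr7:45705232-45705261, plus strand): gggtgcagattgcaaAgctcctttctttgc
Timm23 (ratio 1.01, chr14:32201877-32201906, minus strand): tgcgatacttcacggGagccggcgcccgga
Jtb (ratio 1.003, chr3:90231582-90231611, plus strand): ctgcgcaaacgcagtGagatgcagttgcca
An A as first base occurred at both extremes. Of 83 RefSeq starts that lay inside 81 kept 5'-UTR or first-exon regions, 24.1% had A as first base (95% Wilson interval 16.2 to 34.3), against 34.4% of all 32851 RefSeq start windows. The share was 26.9% among the 26 starts in regions with a ratio of at least 4 and 21.4% among the 28 in regions under 2, and their intervals overlapped. GGAC stood in the first 50 bases of 21.7% of the 83 starts on the transcript's strand and of 18.9% of all windows. Its reverse complement GTCC was found in 24.1% and 17.4%. The RefSeq start may differ from the start used in brown fat, and these shares are descriptions, not sites of methylation.

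The kept regions held 42.3% of the 8309098 reads of the IP library and 8.43% of the 8826904 reads of the input library. A region had a median of 293 IP reads and 55 input reads and was 430.5 bases long in the median (189 to 3286). The median ratio was 4.60 (95% interval 4.45 to 4.76), with quartiles of 2.39 and 9.22 and a range of 1.002 to 142.9. A ratio of at least 10, called high here, was reached by 1046 regions (22.6%), and a ratio under 2, called low, was found in 891 (19.2%). The counting interval lay above 1 in 4077 regions (87.9%). The authors had called a peak in flox/flox in 3802 of the kept regions, with a median ratio of 5.82, and not in the other 834, with a median of 1.46, 658 of which were low and none high. Just inside the minimum, the 174 regions with exactly 20 input reads had a median ratio of 6.12, and just outside it the 228 regions with 18 or 19 reads had 6.37.

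The tissue label was set beside its defining markers. Ucp1, the uncoupling protein, had 2017 input reads and a ratio of 5.92. Of 11 brown adipocyte markers 6 had a kept region, together 619 input RPM, while Ppargc1a, Otop1, Ebf2 and Elovl3 were not in the table. Of 4 white adipocyte markers 3 were kept, together 37.3 input RPM. Of the adipocyte markers 7 of 8 were kept, together 1807 input RPM, and Cd36 was not in the table. Markers of other cells were present too. Of endothelial markers 5 of 7 were kept (245 input RPM together), and Cdh5 had the most input reads of them, 1618. Of fibroblast markers 3 of 5 were kept (94.5 input RPM together) and of macrophage and immune markers 2 of 8 (98.7). Of Schwann cell markers 2 of 5 were kept (17.3) and of skeletal muscle markers 2 of 10 (7.48). Of the 10 muscle markers 7 were in the table, while Acta1 and Ckm, abundant muscle genes, were not. Genes without a listed region are absent from the table, so absence or a low input sum does not show that little RNA was present. Cd36 and Ppargc1a were absent too, though the paper measured the mRNA of both in iBAT. In whole tissue, fewer cells of a type and less RNA per cell cannot be told apart, and the part of other cells in the ratios was not tested.

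**Figure D1:**
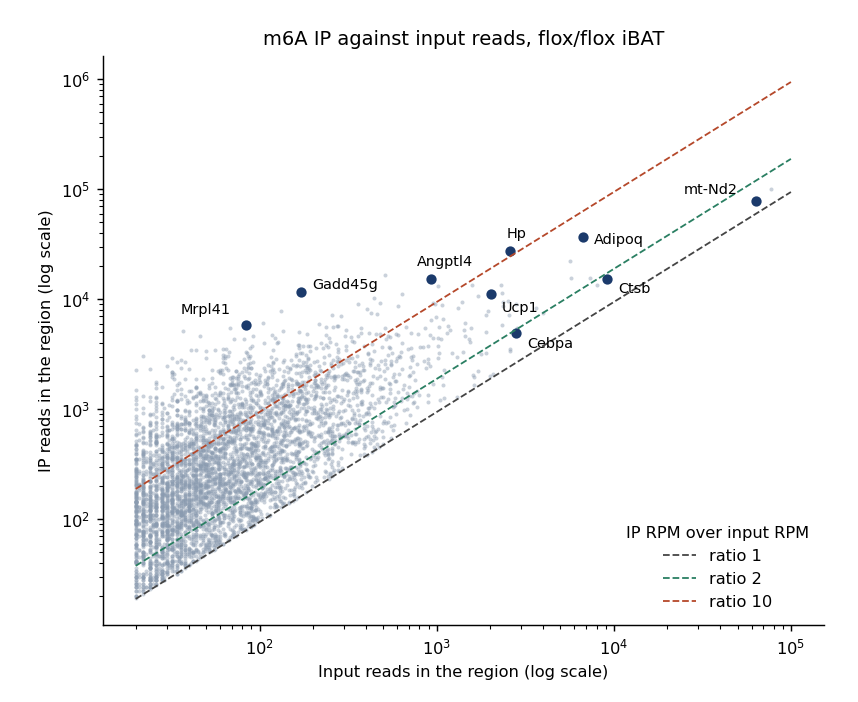
Reads of each of the 4636 kept regions in the flox/flox input (x axis, log scale) and IP (y axis, log scale), with dashed lines at ratios of 1, 2 and 10 and 9 genes named. Gadd45g and Mrpl41 lay far above the line at 10, Adipoq and Ucp1 between 2 and 10, and Ctsb and mt-Nd2 between 1 and 2; points fall no lower than the line at 1 because the table lists none there.

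Among regions with at least 50 input reads and a gene symbol, genes of mitochondrial and cytosolic protein synthesis and RNA processing stood at the top. Mrpl41, a protein of the large mitochondrial ribosomal subunit, had 5816 IP reads against 84 input reads in its 3'-UTR region (chr2:24974052-24974685, GRCm38), a ratio of 72.7 (53.7 to 98.4). Gadd45g, a stress-induced growth arrest gene, had 11561 against 172 in its last exon, a ratio of 71.0 (57.4 to 87.8). Ptrh2, a mitochondrial peptidyl-tRNA hydrolase, followed with 3444 against 56 reads and a ratio of 64.2 (44.3 to 92.97), in a region that the authors labelled 5'-UTR. Pop5, a subunit of RNase P and RNase MRP, had 4337 against 72 reads and 63.1 (45.5 to 87.6). Dnajc15, a J protein of the inner mitochondrial membrane, had 7726 against 132 reads in its 3'-UTR and 61.7 (48.4 to 78.6). The 15 highest also held Gng11 (60.5), Plekho1 (59.0), Ccdc189 (56.2), Ncl, the nucleolar protein nucleolin (55.4), Gadd45gip1, a component of the mitochondrial ribosome (53.0) and Sars, the seryl-tRNA synthetase (49.6). H2-Q4 (52.4) belongs to the MHC class I family of near-identical genes, between which reads may be shared, and its value is uncertain. Another pair of regions lay over several genes at once, Fdx1l with Raver1 and AC163637.2 (70.3) and Ndufa2 with Tmco6 (61.1). The intervals of these 15 regions overlapped, so their order is not settled by the counts.

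The 15 lowest regions at this depth had ratios of 1.0 to 1.02, with intervals that all included 1. Jtb, a transmembrane protein gene, had 151 IP reads against 160 input reads in its 5'-UTR region. Crebbp, the CBP acetyltransferase, had 88 against 93 in a 3'-UTR region that lay 3205 bases from the gene's end, and Trio, a guanine nucleotide exchange factor, 84 against 89. Dbp, a clock output transcription factor, had 147 against 154 at its start. Sucla2, a subunit of succinyl-CoA ligase, had 386 against 404 in an internal exon, and Prelp, a matrix proteoglycan, 479 against 501. The others were Tmed7, Map3k13, Chst15, Nap1l4, Phf3, Golph3, Timm23, Fam168a and Rtf1.

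The regions with the most input reads differed in their ratios. The 2 mitochondrially encoded regions had the most input reads of all, 77441 over mt-Nd5 and mt-Nd6 and 63671 in mt-Nd2, and ratios of 1.38 (1.37 to 1.40) and 1.30 (1.28 to 1.32). Ctsb, a lysosomal protease, had 15396 IP reads against 9179 input reads, and Crat, which shuttles acyl groups onto carnitine, 13461 against 8053, a ratio of 1.78 in both. Adiponectin (Adipoq) had 36579 against 6688 and 5.81 (5.60 to 6.03), Apoe 22254 against 5630 and 4.20 (4.03 to 4.38), and Car3, a carbonic anhydrase of adipocytes, 15558 against 5744 and 2.88 (2.76 to 3.003). Among the 10 regions with the most IP reads, a choice that favours high ratios, Hp, which encodes haptoglobin, reached 27450 IP reads from 2601 input reads, a ratio of 11.2 (10.6 to 11.9). Angptl4, the inhibitor of lipoprotein lipase, had 15278 from 928, a ratio of 17.5 (15.9 to 19.2). Over all regions the median fell with input, from 4.94 (4.68 to 5.22) at 20 to 49 input reads to 4.63 (4.39 to 4.98) at 50 to under 200 and 3.63 (3.30 to 4.03) at 200 or more. The share of high ratios was 24.9%, 23.8% and 10.6%. Input reads are the denominator of the ratio, so ratio and input are not independent, and the part of this in the fall was not tested.

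Enrichment differed by place within the gene, with the 3' end high and the 5' end low. The authors labelled the center of each region, and 1672 kept regions lay in 3'-UTRs and 1239 in last exons, 62.8% of all together. Median ratios were 5.07 (4.76 to 5.33) in 3'-UTRs and 4.79 (4.49 to 5.21) in last exons. They were 2.20 (1.89 to 2.58) in 128 5'-UTR regions, 2.26 (1.92 to 3.05) in 108 first-exon regions and 2.82 (2.48 to 3.26) in 320 internal-exon regions. High ratios made up 23.0% of 3'-UTR and 25.7% of last-exon regions, against 9.4% of 5'-UTR, 5.6% of first-exon and 6.3% of internal-exon regions, beside 22.6% overall. Low ratios ran the other way, with 45.3% of 5'-UTR and 44.4% of first-exon regions and 14.7% of 3'-UTR regions, beside 19.2% overall. Introns (179 regions) had a median of 4.60, intergenic regions (52) 6.00 and the 376 regions for which the authors named no gene 5.54. Of those 376, 333 overlapped a RefSeq gene. At the level of reads, 5'-UTR regions had 148 input and 403 IP reads per kb in the median, and 3'-UTR regions 129 input and 725 IP reads per kb, so that the IP reads differed between places far more than the input reads.

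**Figure D2:**
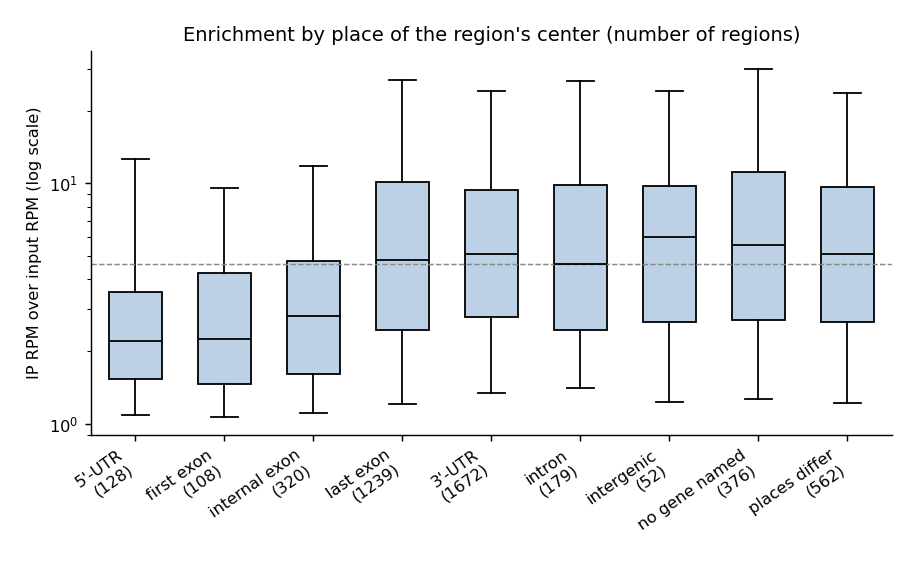
Ratio of IP RPM over input RPM (log scale) of kept regions by the place of their center, with the number of regions. Boxes span the quartiles with the median, whiskers the 5th to 95th percentile, and the dashed line is the median of all regions, 4.60; the 5'-UTR, first-exon and internal-exon boxes sit lowest.

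The difference between both ends of genes was also present among regions of like depth. At 20 to 49 input reads the median was 5.48 for last-exon and 3'-UTR regions together and 2.40 for 5'-UTR and first-exon regions together, at 50 to under 200 reads 5.09 and 2.02, and at 200 or more 3.75 and 2.04. Region length moved with both: 1162 regions of 189 to 309 bases had a median ratio of 2.82, the 1157 of 625 bases or more 6.48, and 5'-UTR regions were shorter (median 290 bases) than 3'-UTR regions (441.5). Among those of 189 to 309 bases the 3' end had 3.03 (2.88 to 3.19) and the 5' end 2.07 (1.92 to 2.28), and at 310 to 430 bases 5.27 (4.77 to 5.72) and 2.28 (1.62 to 6.29), where the intervals overlapped. At 431 to 624 bases they were 7.04 (6.403 to 7.65) and 3.16 (1.63 to 3.88), and at 625 bases or more 6.26 (5.54 to 6.93) and 3.94 (1.41 to 11.3), where the intervals overlapped again. The shares of high ratios at the 3' and 5' ends were 3.52% and 0.68% in the shortest class, 22.2% and 21.3% at 310 to 430 bases, 34.2% and 8.70% at 431 to 624, and 31.3% and 26.3% in the longest, which held 19 regions of the 5' end. The length of a region is itself set by the enriched reads, and its part in the difference was not tested.

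The same order was seen within single genes. Of 69 genes with a kept region over them alone at both ends, the last-exon or 3'-UTR region had the higher ratio in 61, by 3.34-fold in the median (quartiles 1.79 and 8.94), with counting intervals apart in 48. The opposite held in 8 genes and with intervals apart in 2. In Jtb the 5'-UTR region had a ratio of 1.003 (0.73 to 1.37) and the last exon, with 2918 IP reads against 62 input reads, 49.2 (34.6 to 70.1). In Tcf15, a basic helix-loop-helix factor, they were 1.11 (0.85 to 1.46), from 216 against 206 reads, and 72.9 (46.6 to 114), from 2674 against 38. In Dnajc15 they were 1.73 (1.38 to 2.16) and 61.7, and in Adipoq 1.25 (1.11 to 1.41), from 1222 against 1038 reads, and 5.81. Cldn5, an endothelial tight junction protein, had 1.51 (1.03 to 2.20) at its 5'-UTR and 21.7 (18.3 to 25.8) in its last exon. The exceptions with intervals apart were Fcor, a corepressor of Foxo1, with 45.8 (26.7 to 78.6) in its first exon and 14.9 (10.9 to 20.5) in its 3'-UTR, and Myl9, a myosin light chain of smooth muscle, with 6.33 (3.48 to 11.5) and 2.34 (1.90 to 2.88).

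**Figure D3:**
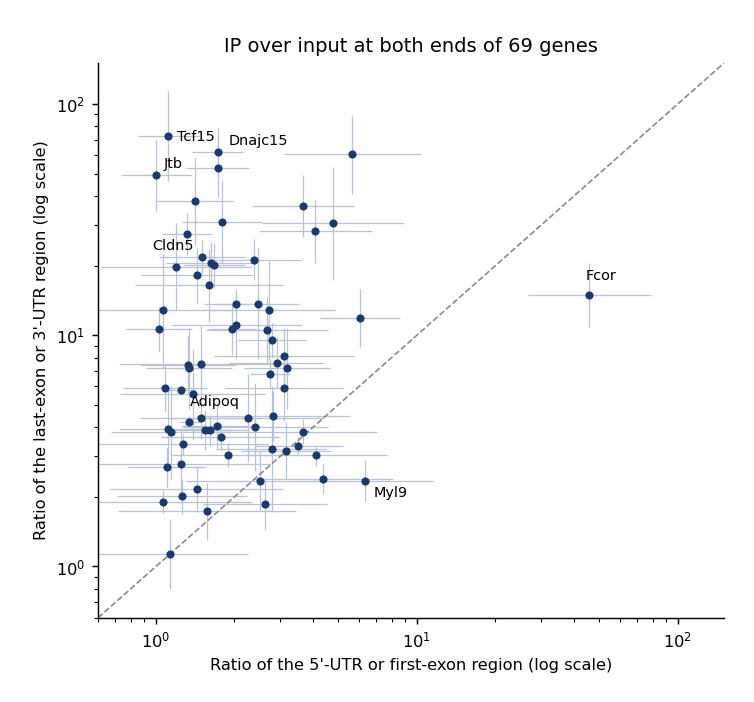
Ratio of the 5'-UTR or first-exon region (x axis, log scale) and of the last-exon or 3'-UTR region (y axis, log scale) of 69 genes, with bars for 95% counting intervals and a dashed line where both are equal. Of the genes, 61 lie above the line, Tcf15, Dnajc15 and Jtb farthest, and Fcor lies well below it.

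Internal exons stood to 3' ends in the same way, with the 3' end higher in 75 of 87 genes and 2.68-fold in the median. Kat14, a histone acetyltransferase, had 42 IP and 42 input reads in an internal exon, a ratio of 1.06 (0.58 to 1.93), and 1888 against 38 in its 3'-UTR, a ratio of 51.5 (32.9 to 80.6). Cox6b1, a subunit of cytochrome c oxidase, went the other way, with 4.75 (4.15 to 5.43) in an internal exon and 2.07 (1.94 to 2.20) in the 3'-UTR. In Slc12a7, a potassium-chloride cotransporter, the internal exon had 8.84 (6.43 to 12.1) and the last exon 1.90 (1.42 to 2.55). Serbp1, an mRNA-binding protein, had 5 kept regions with ratios of 1.30, 2.98, 4.38, 5.53 and 21.0 in the order of the gene from its start, the last one in the last exon. Between the last exon and the 3'-UTR of the same gene, the 3'-UTR region was higher in 65 of 77 genes, by 3.05-fold in the median. Noct, which encodes nocturnin, had 1.11 (0.93 to 1.33) from 483 against 463 reads in the last exon and 17.3 (12.4 to 24.1) from 1204 against 73 in the 3'-UTR. Trappc5, a subunit of the TRAPP trafficking complex, had the reverse, 21.4 (16.2 to 28.4) and 2.86 (1.88 to 4.37).

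Ratios also differed with the distance to the end of the gene. Regions over 1 gene were placed against the end of that gene in RefSeq, which was possible for 2684. The median ratio was 7.72 in 326 regions whose middle lay within 250 bases of the end and 7.92 in 418 at 250 to 500 bases. It was 4.4 in 397 regions at 500 to 1000 bases, 3.25 in 547 at 1000 to 2000, 3.42 in 465 at 2000 to 4000 and 2.99 in 511 farther away. Under 500 bases, 39.9% of 744 regions were high and 2.42% low. At 1000 bases or more, 13.3% of 1523 regions were high and 29.7% low, so a low ratio near the end of a gene was rare. Input reads per kb were 142 near the end and 120 far from it, while IP reads per kb were 1235 and 442.

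**Figure D4:**
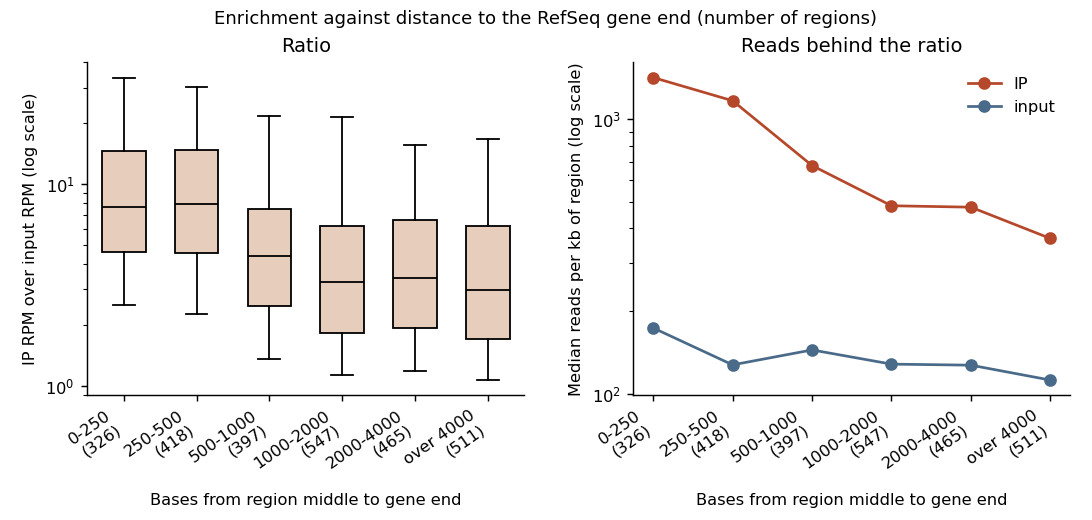
Left, ratio of IP RPM over input RPM (log scale) of regions by the bases from the middle of the region to the RefSeq gene end, with boxes for the quartiles and median and whiskers for the 5th to 95th percentile. Right, median IP and input reads per kb of region (log scale) in the same classes; the IP line falls from 1418 to 367 while the input line stays between 112 and 173.

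This held within each label: among 3'-UTR regions the median was 7.30 (6.73 to 7.71) near the end and 3.79 (3.42 to 4.15) far from it, and among last-exon regions 9.46 (8.15 to 10.8) and 3.26 (2.93 to 3.73). It held at every depth, with 9.83 and 3.43 at 20 to 49 input reads, 8.01 and 3.19 at 50 to under 200, and 4.93 and 2.69 at 200 or more. In each of 4 classes of region length the near regions were higher too, with 3.95 against 2.36 at 189 to 309 bases and 10.99 against 3.88 at 431 to 624. In 165 genes with several kept regions in the last exon or 3'-UTR, the one nearest to the end was the more enriched in 126, by 2.34-fold in the median. The IP reads were 2.14-fold and the input reads 0.90-fold those of the farthest region. The ends are those of RefSeq's longest span for the gene, positions of stop codons were not used, and a shorter 3'-UTR used in brown fat would place regions too far from the end.

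The labels did not always match RefSeq. Of 853 last-exon regions in genes over 2000 bases long, 5 lay within 500 bases of the gene's start (Blvrb, Mpc2, Selenof, Sem1 and Ss18l2), whereas none of 1222 3'-UTR regions did. Fabp4, the adipocyte fatty acid binding protein, had 3 regions all labelled last exon. They had 9691 IP reads against 2542 input reads (ratio 4.05), 9448 against 1382 (7.26) and 4048 against 251 (17.1), and the table puts the last of them 77 bases from the nearest transcription start. Pop5, labelled internal exon, was 169.5 bases from the gene's end.

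The groups of genes were compared by giving each gene its kept region with the most input reads. Over all 3751 genes the median was 4.76 (4.57 to 4.997), with 851 genes high (22.7%) and 685 low (18.3%). Groups were formed by function or name stem, and the counts describe these libraries without a test of the group.

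**Figure D5:**
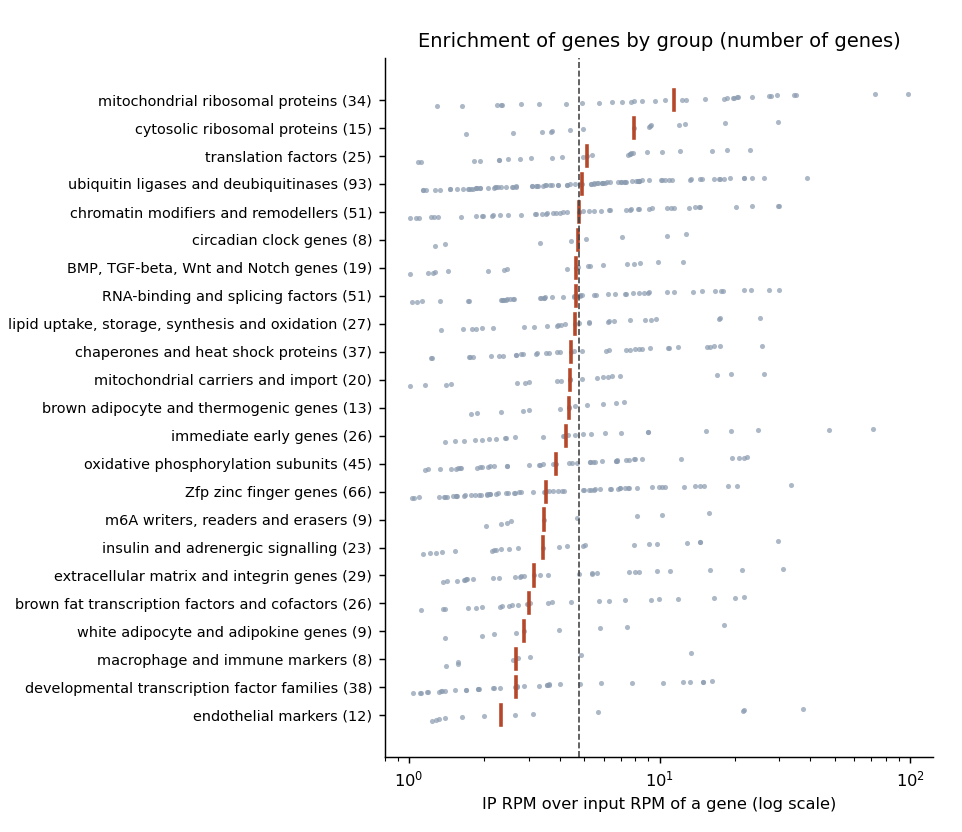
Ratio of IP RPM over input RPM (log scale) of each gene of the groups with at least 8 kept genes (points), the group's median (red bar) and the median of all genes, 4.76 (dashed line). Mitochondrial ribosomal proteins have the highest median, 11.4, and endothelial markers the lowest, 2.32. The spread within groups differs, from 1.29 to 98.4 in mitochondrial ribosomal proteins and from 1.77 to 7.23 in brown adipocyte and thermogenic genes.

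Ribosomal protein genes of mitochondria had the highest median of the larger groups, 11.4 (6.48 to 19.9), and 18 of 34 were high (52.9%, beside 22.7% of all genes) and 2 low. In 21 of them the region lay in the last exon or 3'-UTR, where their median was 19.9, against 5.13 for all genes there. Mrps25 had 2314 IP reads against 24 input reads (98.4, 56.3 to 172), Mrpl41 72.7, Mrpl46 35.2 from 2086 against 62, and Mrpl12, whose region also lies over a further gene, 34.5 from 16612 against 510. Mrps14 (1.29, 0.77 to 2.16), Mrpl24 (2.24, 1.17 to 4.29) and Mrpl44 (2.34, 1.42 to 3.85) were at the low end, with regions in internal exons or the 5'-UTR. The 15 cytosolic ribosomal protein genes had a median of 7.92 (3.67 to 11.9), with 4 high (26.7%) and 1 low (6.7%). Rpl4 reached 29.6 and Rpl41 18.3 from 11020 against 638 reads, and Rpl36 had 1.69 and Rpl8 2.59. Many ribosomal proteins have processed pseudogenes, which may share reads with them. Of the 22 mitochondrial ribosomal genes placed against a gene end, 36.4% lay within 500 bases of it, beside 29.9% of all genes.

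Genes of oxidative phosphorylation, which build complexes I to V of the respiratory chain, had a median of 3.84 (2.46 to 5.51). Of 45 genes 5 were high (11.1%) and 11 low (24.4%), beside 22.7% and 18.3% of all genes. Ndufa1, Ndufs6 and Ndufa5 of complex I had 22.4, 19.4 and 20.7, and Atp5k of ATP synthase 21.8. Sdhb of complex II had 1.19 (1.02 to 1.37) from 752 against 674 reads, Ndufs7 1.33 (1.14 to 1.55) and Cox5a 1.54 (1.32 to 1.80). With the most enriched region of each gene instead, the median of the group was 5.28, against 5.33 for all genes. The regions of the group lay elsewhere than those of most genes. Counted by region and not by gene, 26 lay at the 5' end, 14 in internal exons and 10 at the 3' end. At the 5' end their median was 3.79, with 3 of 26 high, and that of the other 210 5' regions was 2.06, with 15 high (7.1%). In internal exons the medians were 4.54 and 2.75, with 2 of 14 high among these genes and 18 of 306 (5.9%) among the others. At the 3' end the medians were 5.30 and 4.96, with 1 of 10 high among these genes and 701 of 2901 (24.2%) among the others. Ndufb7 carried 1266 IP reads against 66 input reads at its first exon, a ratio of 20.1 (14.2 to 28.4), and in its last exon, a region shared with Tecr, 5.42 (4.91 to 5.99) from 4702 against 920. Cox8b, a brown fat form of a cytochrome oxidase subunit, had 8290 against 1316 in its first exon and 6.69 (6.16 to 7.26), and Uqcrh of complex III 7.91 (6.6 to 9.48).

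Thermogenic genes lay around the middle. Of 13 genes none was high and 2 were low (15.4%), beside 22.7% and 18.3% of all genes, with a median of 4.33 (2.32 to 5.92). Their regions had a median of 337 input reads, and of all regions with 200 or more input reads 10.6% were high. Ucp1 had 11244 IP reads against 2017 input reads in its last exon, 320.5 bases from the gene's end (chr8:83297793-83298478), and a ratio of 5.92 (5.54 to 6.33). Ucp3 had 4.59 (4.17 to 5.06), Ucp2 3.998 (3.37 to 4.74) and Kcnk3, a potassium channel, 2.85 (2.56 to 3.17). Adrb3, the receptor through which noradrenaline acts on brown fat, had 2.32 (1.97 to 2.74), and Dio2, which activates thyroid hormone, 1.86 (1.28 to 2.69). Adora2a, an adenosine receptor, had 1.77 (1.34 to 2.34).

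The transcription factors and cofactors of brown fat spread widely around a median of 3.0 (2.36 to 6.29). Of 26 genes 4 were high (15.4%) and 6 low (23.1%), beside 22.7% and 18.3% of all genes. Rreb1 had 21.7 (14.7 to 32.1), Tfam, which maintains mitochondrial DNA, 19.9 (14.6 to 27.1), Rxra, the partner of PPARs, 16.5 (13.2 to 20.6) and Ebf1 11.8 (8.85 to 15.8). Pparg, the master regulator of fat cells, had 2524 against 468 reads and 5.72 (4.98 to 6.57). Cebpb had 2.97 (2.79 to 3.17), Cebpa 1.85 (1.74 to 1.98) from 4902 against 2808, Klf15 1.72 (1.30 to 2.27) and Ppard 1.12 (0.72 to 1.72). Prdm16, a determinant of brown identity, had 8.14 (4.88 to 13.6) in its last exon, from 252 against 32 reads. A further region of Prdm16, labelled intergenic and 320984 bases from the gene's end, had 9.26 (6.61 to 12.99) from 653 against 74. Ppara had 38.3 (21.8 to 67.2) in an intron, from 900 against 24 reads, and 3.73 (3.05 to 4.55) in its last exon, from 876 against 249.

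Lipid genes had a median of 4.60 (3.14 to 6.57). Of 27 genes 3 were high (11.1%) and 5 low (18.5%), beside 22.7% and 18.3% of all genes. Angptl4 (17.5) and Abhd5, the coactivator of the lipase ATGL (17.2, 13.5 to 21.9), were high, as was Dgat2 with 25.2 (13.98 to 45.5) in an intron, from 545 against 22 reads. Among proteins of the lipid droplet, Plin5 (9.71, 8.43 to 11.2) and Cidec (6.57, 6.11 to 7.06) lay above Plin3 (1.95, 1.61 to 2.37) and Plin4 (1.86, 1.57 to 2.19), whose intervals overlapped each other. Plin1 lay between them in a 5'-UTR region, with 3.56 (1.84 to 6.87) from 76 against 22 reads. Lpl, lipoprotein lipase, had 3.92 (3.61 to 4.26), the fatty acid transporter Slc27a1 1.64 (1.44 to 1.87) and Acaca, which makes malonyl-CoA, 2.88 (2.58 to 3.21). In the insulin and adrenergic list, 4 of 23 were high (17.4%) and 5 low (21.7%), near the shares of all genes. Rptor of mTOR complex 1 had 29.6 (16.2 to 54.0) and Irs2 12.9 (9.13 to 18.3), while Foxo1 had 1.35 (1.03 to 1.76) and Adcy6 1.28 (1.07 to 1.53).

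Developmental transcription factor families (Hox, Fox, Sox, Tcf and the like) had a low median of 2.66 (1.88 to 3.55). Of 38 genes 15 were low (39.5%, beside 18.3% of all genes) and 6 high (15.8%, beside 22.7%). Sox18, an endothelial factor, had 1.32 (1.09 to 1.60) and Gata2 1.20 (0.72 to 1.99), against 16.2 (10.7 to 24.6) for Twist1 and 14.9 (11.1 to 19.9) for Foxn3. The members with a low ratio in their deepest region were not always low throughout, as Tcf15 shows. Of 66 Zfp genes, 9 were high (13.6%) and 17 low (25.8%). Immediate early genes were high in 5 of 26 (19.2%) and low in 5 (19.2%), close to the shares of all genes, 22.7% and 18.3%. Gadd45g had 71.0, Jun 47.5 (33.6 to 67.3), Ier2 19.3 (14.4 to 25.8) and Myc 15.4 (10.8 to 21.9), and Junb had 1.66 (1.21 to 2.27), Sik1 1.84 (1.45 to 2.33) and Per1 1.39 (0.94 to 2.06). Among genes of the m6A machinery, 2 of 9 were high (22.2%, near the 22.7% of all genes) and none low. Wtap had 15.7 (10.9 to 22.8) and the nuclear reader Ythdc1 10.3 (5.44 to 19.4), and the cytoplasmic reader Ythdf2 had 2.04 (1.40 to 2.96) in an internal exon and 3.70 (2.14 to 6.4) in its 3'-UTR. Neither Mettl3 nor Ythdf1 had a kept region.

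Markers of other cells of the tissue varied from list to list. Of 12 endothelial genes, 6 were low (50%, beside 18.3% of all genes), among them Cdh5, the adhesion molecule VE-cadherin (1.28, 1.16 to 1.40), and Esam (1.63, 1.39 to 1.91). A high ratio was found in 3 (25%, beside 22.7%), Robo4 (37.4, 27.7 to 50.6), Cldn5 (21.7) and Eng (21.5, in a region shared with Fpgs). Of 8 macrophage and immune genes, 3 were low (37.5%) and 1 high (12.5%). C1qa was the high one with 13.4 (10.8 to 16.5), while its partner in complement C1q, C1qc, had 1.41 (1.12 to 1.77). The medians of these lists were 2.32 (1.32 to 21.5) and 2.67 (1.41 to 13.4), and both intervals held the 4.76 of all genes. With the most enriched region of each gene they were 3.43 and 2.88, against 5.33 for all genes. The 5 skeletal muscle genes had a median of 1.89, with 1 high and 3 low, whereas 4 fibroblast and progenitor markers had 6.83, with 2 high and 2 low, and 2 Schwann cell and nerve markers had 6.65, with none high or low. In 29 extracellular matrix and integrin genes the median was 3.14, with Itga5 at 31.0 (20.4 to 47.3) and Col6a1 at 1.80 (1.49 to 2.17).

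Translation factors (25 genes, median 5.15), ubiquitin ligases and deubiquitinases (93, 4.89), chromatin modifiers (51, 4.76), RNA-binding and splicing factors (51, 4.65), chaperones (37, 4.41) and mitochondrial carriers and import proteins (20, 4.39) lay near the median of all genes. Between 15% and 21.6% of their members were high and between 11.8% and 20% low, beside 22.7% and 18.3% of all genes. Eif4g1, the scaffold of cap-dependent initiation, had 18.5 (16.1 to 21.2), Hspa5, the chaperone BiP, 25.6 (21.7 to 30.2) and Herc2, a ubiquitin ligase, 38.7 (27.1 to 55.3).

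The authors' GO annotation, used here for 186 terms with at least 30 kept genes over 3288 genes, gave the following order, in which terms share genes. The highest medians were those of rRNA processing (38 genes, 10.5, 6.43 to 20.03), ribosome (57, 9.12), translation (87, 8.80) and structural constituent of ribosome (43, 8.50), and methylation (37, 7.59) and DNA repair (69, 6.87) were also near the top. In rRNA processing 20 genes were high (52.6%) and 1 low (2.6%), beside 22.7% and 18.3% of all genes. Of its genes with a measured distance, 66.7% lay within 500 bases of the gene end, beside 29.9% of all genes. For mRNA splicing via the spliceosome (37 genes, 6.51) none was low. In the related terms RNA splicing (74, 5.44) and mRNA processing (86, 5.38), 3 (4.1%) and 7 (8.1%) were low. Among the lowest medians were those of calcium ion binding (89 genes, 2.81, 2.36 to 3.78), axon (35, 2.83), cytoplasmic vesicle membrane (31, 3.04), cell migration (31, 3.48), G-protein coupled receptor signalling (41, 3.48), focal adhesion (66, 3.54) and cell junction (102, 3.56). In calcium ion binding 25 genes were low (28.1%) and 9 high (10.1%), and 16.9% of those with a distance lay near the gene end.

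Regions without a gene symbol were named by their position in RefSeq where one was found. The highest such ratios were 84.6 over Gm2830 and LOC115486438, 84.3 over 9130214F15Rik, 70.5 over Itfg1 and the pseudogene Atp5k-ps1, and 68.1 over Mrpl52, a further mitochondrial ribosomal protein, from 2370 against 36 reads. Neat1, the long noncoding RNA of paraspeckles, had 13400 IP reads against 2305 input reads over 2323 bases (chr19:5842242-5844565) and a ratio of 6.17 (5.8 to 6.57). The highest ratio of all, 142.9 (91 to 224), came from 5111 against 37 reads at chr3:5860247-5860902, where neither the table nor RefSeq named a gene, and the highest with a symbol was Ndn, an imprinted gene, in a region shared with another gene, with 141 (79.1 to 252) from 3058 against 22 reads.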

How the data were processed

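The flox/flox columns of the deposited table of m6ARIP-seq peaks were used. By the methods and processing notes of the submitters, adaptors were removed (skewer), reads were aligned to GRCm38 (BWA 0.7.12-r1039) and peaks were called (MACS2 2.1.0). How regions of the genotypes were joined and counted, and from which base coordinates start, was not stated. The authors deposited whole read counts per region. The deposited RPM values are those counts plus 1, scaled to library totals, and the deposited fold enrichment is the ratio of IP RPM over input RPM. Ratios recomputed here differed from the deposited ones by a relative difference of at most 9.03e-06. The table's own comparison of the genotypes was not used.

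Each of the 4636 regions was counted once. Counting intervals (95%) were taken on the log scale with 2 reads per fragment, because 92.5% of IP and 91.3% of input counts from 1 to 20 were even. Shares have Wilson intervals and medians binomial order-statistic intervals. PCR copies are not independent molecules. With 1 library of each kind no test was made. Named were the 15 highest and 15 lowest regions with at least 50 input reads and a symbol, the 10 with most input reads, the 3 highest and lowest of each place, extreme members of gene lists, genes the paper names and 5 genes with the widest range. Members, lists and rules were chosen with earlier results of these data known, and examples were picked after their values were seen. The analysis by distance to the gene end and the bases at starts were added after the table was seen. A search for motifs in the regions needed a genome and was not done. Some regions that the rule names are not reported here.

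RefSeq (GRCm38.p6) gave gene ends, names by position and start windows, and 3587 of 3751 symbols matched it. Python 3.11.15, pandas 2.3.3, NumPy 2.4.6, SciPy 1.17.1 and Matplotlib 3.10.9 were used. The intervals were run on counts simulated under the same model of 2 reads per fragment that they assume. That run checks the calculation only, not whether real counts follow the model. Alternatives were other minimums of input reads, 0.5 added to counts, regions over 1 gene or with a called peak, other thresholds, scaling, input classes and other regions of a gene.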

Additional observations from a re-analysis of the deposited data

Results flagged for a closer look

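Listed regions without any input read in flox/flox, outside the kept set, held 64940 IP reads together, a signal in data that the comparisons did not use. There were 841 such regions, with a median of 32 IP reads, and the authors had called a peak in flox/flox in 374 of them. A count of 0 in the input gives no ratio that can be set beside those of the kept regions.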

How the results depend on the processing

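Each comparison has 1 library of each kind, and all values rest on it. No paired analysis was possible because each group has 1 library and no test was made. The median ratio over regions near the gene end stayed above that over regions far from it, and that at the 3' end above that at the 5' end, in every alternative run; 39 of 90 alternative values moved beyond their interval. The alternatives for the gene end were chosen after seeing the data. With a minimum of 10 input reads the median ratio of regions was 4.93, of genes 5.03, of 3' end regions 5.41 and of regions near the gene end 8.59, and 25.2% of regions were high. With 50 reads they were 4.36, 4.45, 4.56 and 7.19, internal exons had 2.40, and 20.6% were high. With called peaks only, the medians were 5.82 for regions, 5.83 for genes, 3.55 at the 5' end, 3.94 in internal exons, 5.94 at the 3' end, 4.61 far from the gene end and 3.64 for developmental factors, with 27.5% of regions high and 6.13% low. By input class, medians at 20 to 49 reads were 5.48 (3' end), 9.83 (near) and 3.43 (far), at 50 to under 200 reads internal exons had 2.42, and at 200 or more they had 2.32, the 3' end 3.75, near regions 4.93 and far regions 2.69. Within 3'-UTRs near and far were 7.30 and 3.79, and near in last exons was 9.46. The gene median was 5.33 with the most enriched region, 5.06 with 3' end regions only and 4.55 with regions over 1 gene. Dividing by the median set it to 1, with 1.23% of regions high and 74.9% low. Thresholds of 8 and 1.5 gave 29.6% high and 10.7% low. Mitochondrial ribosomal genes (10.5 to 19.9) and oxidative phosphorylation genes (3.38 to 5.30) stayed within the intervals of their medians. The search for motifs in regions was not run. At 20 input reads the counting error of a ratio is wide, so the order of single regions with few input reads is not settled.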
